A study of Homo sapiens with 4 samples.

Results

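The genes described here are the human genes for linker and core histones whose symbols start with H1-, H2AC, H2BC, H3C or H4C, taken by symbol from the protein-coding genes of the RefSeq table of GRCh38.p14. There are 74 of them among 20037 protein-coding genes on chromosomes 1 to 22, X and Y. Chromosome 6 carries 55, chromosome 1 carries 13, and the other 6 lie on other chromosomes. The 74 comprise 10 genes for linker histones H1, 17 for H2A, 19 for H2B, 13 for H3 and 15 for H4. The measurement was ChIP-seq of the orphan nuclear receptor ERRα in MDA-MB-231, an established human breast cancer cell line, with 2 ERRα ChIP replicates and 2 input libraries. All cells were grown in serum-containing medium with no treatment named, fixed with 1% formaldehyde and sonicated. The ChIP used 5 µg of an antibody to ERRα, and the inputs had none. Peak positions and heights come from 3 deposited lists, one per ChIP replicate and one of peaks matched between the replicates by their irreproducible discovery rate (IDR).

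Histones are the proteins on which DNA is wound into nucleosomes. H2A, H2B, H3 and H4 form the core of the nucleosome, and H1 binds the DNA where it enters and leaves. Most of these genes are active when DNA is copied, have no introns and lie close together, often as an H2A and an H2B gene read in opposite directions from a shared stretch of promoter. ERRα is best known for genes of mitochondrial energy metabolism, and its usual DNA element contains the word TCAAGGTCA.

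A gene was counted as having a summit when the highest point of an ERRα peak lay inside it or within 5 kb. Peak height is the authors' fold enrichment of ChIP over input, one value per replicate. The genes and the summits beside them were chosen by position with earlier results of these peak lists known, so counts and heights are descriptions and carry no test. Neighbouring genes often share a summit, and with 2 replicates an SD is itself imprecise. The replicate lists held 14072 and 12659 peaks and the matched list 10059, of which 5070 (50.4%) reached an IDR of 0.05 (a score of 540 or more). The labels print read numbers without a clear exponent; as interpreted here, ERRα libraries had 29000000 reads and inputs 10000000. Whether the replicates came from separate cultures is not stated.

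In the matched list, 34 of the 74 histone genes (45.9%) had an ERRα summit, against 27% of all protein-coding genes. In the lists of replicate 1 and replicate 2 the counts were 40 (54.1%) and 36 (48.6%), against 34.3% and 31.6% of all protein-coding genes. At an IDR of 0.05 the count was 15 (20.3%), against 15.8%, and at an IDR of 0.01 it was 9 (12.2%), against 12.8%, so the shares lay near the background once weak peaks were left out. Histone genes are short, with a median length of 496 bp against 24115 bp for all protein-coding genes, and a short gene offers less room for a summit. Among genes of at most 1 kb, 28 of 62 histone genes (45.2%) had a matched summit, against 20 of 466 others (4.29%). At an IDR of 0.05 the short-gene counts were 11 (17.7%) against 13 (2.79%). A matched peak covered the whole gene for 17 of the 62 short histone genes (27.4%) and for 5 of the 466 others (1.07%). Histone genes lie close together and can share a peak, and the part of this in the shares was not tested. The other short genes were chosen on length alone, and the activity of either group in these cells was not measured.

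The 34 genes shared 27 matched summits. These were lower than matched peaks in general, with a median mean fold of 7.63 against 8.44 for all 10059, and 23 of 27 (85.2%) were under 10, against 61.6%. Their peaks were wider, with a median of 823 bp against 642 bp. An IDR of 0.05 was reached by 9 of the 27 (33.3%), against 50.4% of all matched peaks, and 8 of 27 (29.6%) had the lowest score in the list, against 26.3%. In 3 of the 27, at H2BC3 and H2BC21 in replicate 2 and at H1-4 in replicate 1, the deposited height was the sum of 2 separate peaks of that replicate (6.29 and 7.22 at H2BC3, 10.1 and 5.24 at H2BC21, and 3.47 and 7.91 at H1-4).

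The clusters on chromosomes 6 and 1 differed in how many of their genes had a summit. On chromosome 6 it was 21 of 55 (38.2%), and on chromosome 1 it was 12 of 13 (92.3%). The background was 25.8% of all protein-coding genes of chromosome 6 and 23.4% of those of chromosome 1. At an IDR of 0.05 the contrast was wider, with 5 of 55 (9.09%) on chromosome 6 and 10 of 13 (76.9%) on chromosome 1. The chromosome 6 share lay below the 15.8% of all protein-coding genes, which are mostly far longer. Among genes of at most 1 kb, the counts were 4 of 50 (8%) on chromosome 6 and 7 of 10 (70%) on chromosome 1. Of other protein-coding genes this short, 13 of 466 (2.79%) reached that IDR, a share below that of chromosome 6. The 5 on chromosome 6 at that IDR were H4C2, H3C2, H1-4, H2BC5 and H4C8, at 3 summits. H3C2 was counted through the H4C2 summit, as the summit inside it scored 154, the lowest score. The 10 on chromosome 1 were at 6 summits. H2AC18 and H2AC19 were counted through neighbouring summits, as the summits inside them scored 316 and 154. Among the 10, H4C14, H3C14, H2AC18, H4C15, H2AC19 and H3C15 form pairs with identical promoter windows. They are therefore not separate evidence, as described below. H2BC21, H2AC20 and H2AC21 share a single summit, and H2BC18 was counted through a summit that also lies inside FCGR1A. In the replicates' own lists, chromosome 6 had 26 genes in replicate 1 and 23 in replicate 2, and chromosome 1 had 12 in each. When every summit was counted for its nearest gene alone, 15 of 55 genes on chromosome 6 and 9 of 13 on chromosome 1 remained. Heights differed less: the median mean fold was 7.4 for the 15 summits of chromosome 6 and 8.16 for the 11 of chromosome 1. By replicate, the medians were 6.7 and 7.82 on chromosome 6 and 7.99 and 8.39 on chromosome 1, higher on chromosome 1 in each replicate. At IDR scores of at least 540 and 830 the order was reversed. Median mean folds were then 10.5 and 22.2 on chromosome 6, from 3 and 2 summits. On chromosome 1 they were 8.96 and 11, from 6 and 2 summits.

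**Figure D1:**
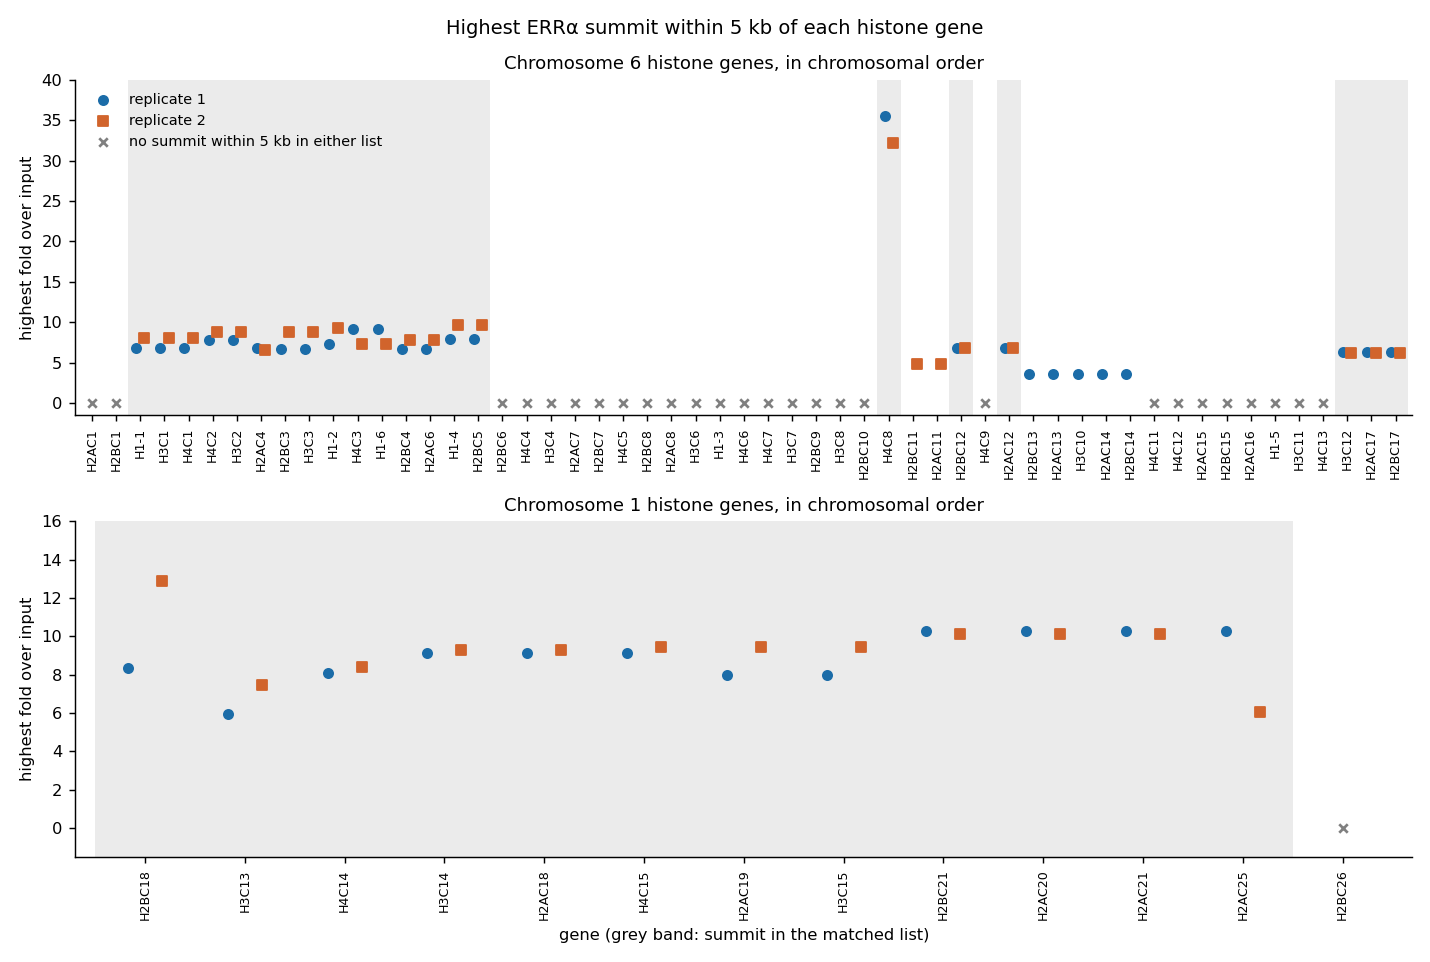
Highest fold over input of any ERRα summit within 5 kb of each histone gene, for replicate 1 (circles) and replicate 2 (squares), with genes in chromosomal order on chromosome 6 (top) and chromosome 1 (bottom). Crosses at 0 mark genes with no summit in either replicate list, and grey bands mark genes with a summit in the matched list; a summit near several genes is drawn at each. Chromosome 6 shows a run of 15 banded genes, 16 genes without a summit and then H4C8, at 35.5 and 32.2.

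By histone type, matched summits were found at 4 of 10 H1 genes (40%), 9 of 17 H2A genes (52.9%), 7 of 19 H2B genes (36.8%), 7 of 13 H3 genes (53.8%) and 7 of 15 H4 genes (46.7%), against 27% of all protein-coding genes. Since an H2A and an H2B gene can share one summit, these counts are not independent of each other. On chromosome 6 the shares ran from 33.3% for H2A, H2B and H4 to 66.7% for H1, against 25.8% of all protein-coding genes there. The H1 share includes H1-1 and H1-6, counted only through the H3C1 and H4C3 summits, 3007 and 3161 bp away. At an IDR of 0.05 the chromosome 6 shares were 1 of 6 (16.7%) for H1 and 2 of 12 (16.7%) for H4. All protein-coding genes then stood at 15.8%. On chromosome 1, which has no H1 gene among the members, they ran from 66.7% for H2B to 100% for H2A, H3 and H4, against 23.4%. Every one of the H1 genes with a matched summit was on chromosome 6.

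The strongest summit of the whole family lay beside H4C8, an H4 gene at the upper end of the first large group on chromosome 6 (26285126 to 26285534). Its peak spanned 26285086 to 26286551, and its height was 35.5 in replicate 1 and 32.2 in replicate 2 (mean 33.8 ± 2.39, SD, n = 2). The replicate summits were 1 bp apart. The mean was 2.64 times the next highest deposited mean of a histone summit, at H2BC21, where 2 peaks were summed, and it ranked 476 of 10059 matched peaks. The summit lay 342 bp before the start of H4C8, which is read from the minus strand. It was also inside the long non-coding RNA gene LOC124901287 and 650 bp from the tRNA gene TRX-CAT1-2, so the peak cannot be given to H4C8 alone. The 250 bases before the H4C8 start do not reach the summit. They are shown because this is the strongest peak, and they have no capitals because they hold none of the words searched on both strands. These words were the ERRα element TCAAGGTCA and its shorter form AAGGTCA. The other words searched were the NF-Y word CCAAT and the TATA box word TATAAA. The window is chr6:26285535-26285784 (GRCh38.p14, RefSeq, minus strand, 5′ to 3′).
H4C8: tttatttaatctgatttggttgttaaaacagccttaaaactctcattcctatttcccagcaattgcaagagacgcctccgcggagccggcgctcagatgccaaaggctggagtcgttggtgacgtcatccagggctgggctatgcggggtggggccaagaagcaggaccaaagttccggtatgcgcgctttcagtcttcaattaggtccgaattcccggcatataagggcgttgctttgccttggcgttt

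At lower coordinates than H4C8 lay the longest run of histone genes without ERRα summits. The 16 genes from H2BC6 to H2BC10 (26183761 to 26273412) had no summit in any of the 3 lists. They comprise 1 H1, 2 H2A, 5 H2B, 4 H3 and 4 H4 genes, so every histone type was present in the gap. From the last summit before it to that of H4C8 the gap measured 128 kb. One of these genes, H2BC10, was the only one of the 67 histone genes with a RefSeq window whose 250 bases before the start held AAGGTCA, the core of the ERRα element. It was 12.5 kb from the nearest matched summit. Its window is chr6:26272681-26272930 (plus strand), with AAGGTCA and CCAAT in capitals.
H2BC10: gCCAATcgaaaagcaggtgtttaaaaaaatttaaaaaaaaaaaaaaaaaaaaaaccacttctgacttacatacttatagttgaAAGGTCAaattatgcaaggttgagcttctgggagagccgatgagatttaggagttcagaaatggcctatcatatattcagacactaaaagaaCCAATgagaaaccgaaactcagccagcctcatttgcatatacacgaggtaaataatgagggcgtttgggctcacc

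Before that gap, 15 consecutive genes from H1-1 to H2BC5 all had a matched summit, and they shared 10 summits. The H4 gene H4C2 had a summit inside it with folds of 7.82 in replicate 1 and 8.8 in replicate 2. The same holds for the linker histone gene H1-2, with 7.31 and 9.23, and for H4C3, with 9.13 and 7.25. The summit inside H3C1 reached 6.79 and 8.01 and served H4C1 and H1-1 as well. Inside H3C2 the folds were 4.98 and 6.58, inside H2AC4 they were 4.66 and 5.67, and inside H3C3 they were 6.7 and 8.76. Summits inside a gene made up 8 of the 10 of this run, the last of them in H2BC4.

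The linker histone gene H1-4 and its neighbour H2BC5 shared the only summit of this run with an IDR score of 1000. The matched folds were 11.4 in replicate 1, which sums 2 peaks, and 9.64 in replicate 2 (mean 10.5 ± 1.22, SD, n = 2). The summit was 236 bp past the end of H1-4 and 770 bp from H2BC5. Inside H2BC4, 286 bp past its start and 532 bp from H2AC6, the H2A gene read in the opposite direction, the folds were 6.69 and 7.82. At H2BC3 they were 6.42 in replicate 1 and 13.5 in replicate 2, where 2 peaks were summed, and this SD of 5.01 was the highest of all 27. H1-6, a linker histone gene of the testis, was counted through the H4C3 summit 3161 bp away.

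On the rest of chromosome 6, summits were found at 2 further groups of genes. H2AC1 and H2BC1, histone genes of the testis at the lower end of the cluster, had none in any list, and their nearest matched summit was 5691 and 6405 bp away. In the group from 27132316 to 27147562, H2AC12 and H2BC12 shared a summit inside H2AC12 with a fold of 6.85 in each replicate, and the H4 gene H4C9 had none within 5 kb. At the upper end, H3C12, H2AC17 and H2BC17 shared 3 summits, with folds of 6.33 and 5.24, of 3.9 and 4.62, and of 4.23 and 6.23 in replicates 1 and 2. All of these 3 had the lowest IDR score in the list, 154. Mean folds over these 4 summits ran from 4.26 to 6.85. The 13 genes from H2BC13 to H4C13 had no matched summit, and the last 8 of these, from H4C11 on, had none in the replicate lists either.

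On chromosome 1, the main cluster spans 149782689 to 149887965 and holds 11 genes, all with a matched summit. Its 10 matched summits amount to 9.5 per 100 kb. They include those of the paired genes described below, which are not separate evidence. The large chromosome 6 group from H1-1 to H4C8 had 10 summits inside its 269 kb, or 3.72 per 100 kb. The H4C8 summit lies just outside this span and was not counted, and the span includes the run of 16 genes without a summit. The chromosome 6 groups from H2BC11 to H2AC12 and from H2BC13 to H2BC17 had 6.56 and 3.47, from 1 and 3 summits. The rate over all chromosomes, stretches without genes included, was 0.326. The chromosome 1 peak with the highest deposited mean, 3172 bp wide, covered H2AC20 and H2AC21 and part of H2BC21. Its folds were 10.3 in replicate 1 and 15.3 in replicate 2, where 2 peaks were summed (mean 12.8 ± 3.56, SD, n = 2). The higher of these 2 peaks alone was 10.1, so this rank rests on the sum. Its replicate summits were 821 bp apart, the largest distance among the 27, with that of replicate 1 inside H2AC20 and that of replicate 2 inside H2BC21. The matched summit, which lies midway, fell between H2BC21 and H2AC20, 41 bp before the start of the first and 195 bp before that of the second. It was the only matched summit within 250 bases before the start of the 67 histone genes with a window, but neither replicate's own summit lay there. The bases before the H2AC20 start are given for that reason, from chr1:149886668-149886917 (plus strand), with CCAAT and TATAAA of either strand in capitals. The matched summit is base 56.
H2AC20: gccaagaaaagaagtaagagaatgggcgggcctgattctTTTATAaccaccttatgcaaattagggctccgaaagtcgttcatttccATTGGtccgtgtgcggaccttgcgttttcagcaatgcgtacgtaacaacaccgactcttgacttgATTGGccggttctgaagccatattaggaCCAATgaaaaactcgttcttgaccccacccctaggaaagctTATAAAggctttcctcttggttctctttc

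In the middle of the chromosome 1 cluster, 6 genes form matching pairs on opposite strands. Aligned promoter windows of 296 to 300 bases were identical between H4C14 and H4C15, between H3C14 and H3C15, and between H2AC18 and H2AC19. The ERRα summits lay nearly symmetrically. Measured from the centre of the block, the summit near the start of H4C14 was 14147 bp away and that of H4C15 was 14108 bp away. At H3C14 and H3C15 the distances were 6278 and 6407 bp, and at H2AC18 and H2AC19 they were 4274 and 4322 bp. Heights were close within pairs too. H4C14 had folds of 8.1 and 8.39, and H4C15 had 7.61 and 7.65. H3C14 had 9.13 and 9.27, and H3C15 had 7.99 and 9.44. H2AC18 had 6.14 and 8.86, and H2AC19 had 5.54 and 7.34. The replicate values of H4C14 and H4C15 did not overlap, while those of the H3 and H2A pairs did. The H3C14 and H3C15 summits lay 58 and 189 bp past the ends of these genes. Both the H3C15 and H2AC19 summits lie inside H4C15 as RefSeq annotates it, over 16753 bp. Reads from identical copies cannot be told apart, and the sources at hand do not say how such reads were placed. The 6 genes are therefore not separate evidence of ERRα signal at each copy.

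To show how much the paired promoters share, the windows of H4C14 (chr1:149832407-149832656, plus strand) and H2AC18 (chr1:149842751-149843000, minus strand) are given once for each pair, with CCAAT and TATAAA of either strand in capitals. H4C14 has neither word.
H4C14: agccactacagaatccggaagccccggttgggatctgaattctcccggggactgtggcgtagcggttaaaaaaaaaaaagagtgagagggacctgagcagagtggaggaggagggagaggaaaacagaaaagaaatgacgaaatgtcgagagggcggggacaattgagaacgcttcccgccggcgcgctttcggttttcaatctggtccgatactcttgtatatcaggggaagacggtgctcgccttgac
H2AC18: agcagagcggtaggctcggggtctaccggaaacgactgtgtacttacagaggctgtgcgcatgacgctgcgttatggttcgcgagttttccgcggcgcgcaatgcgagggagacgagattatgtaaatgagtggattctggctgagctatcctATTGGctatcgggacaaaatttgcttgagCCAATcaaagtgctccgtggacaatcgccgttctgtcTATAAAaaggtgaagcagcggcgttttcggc

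**Figure D2:**
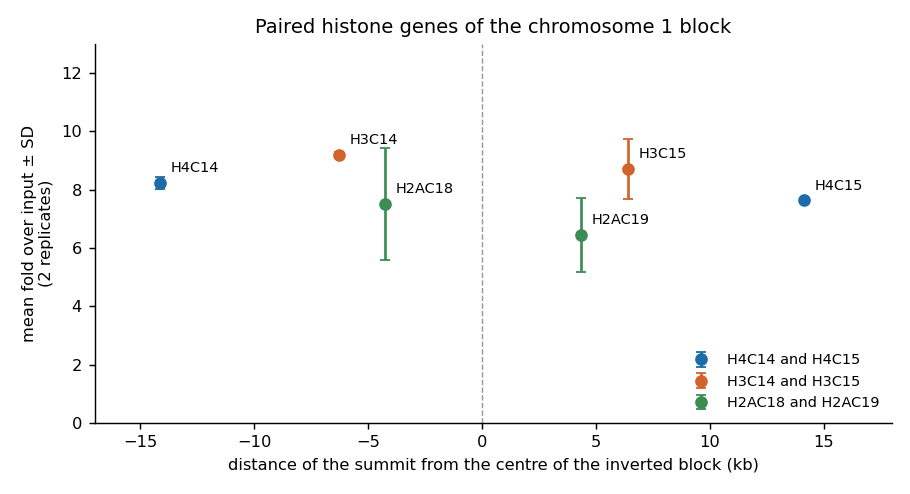
Mean fold over input of the matched summit inside or just past each of 6 histone genes in the chromosome 1 block. The horizontal axis is the distance of the summit from the centre of the block in kb. Bars are the SD of 2 replicates, and colours mark pairs; partners sit at nearly equal distances on either side, 4274 and 4322 bp for the innermost pair.

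The remaining chromosome 1 genes were H2BC18, H3C13, H2AC25 and H2BC26. H2BC18 is annotated over 29682 bp and held 2 summits, and a further one lay inside its neighbour H3C13. The highest, with folds of 8.37 and 12.9, was 16802 bp from the annotated start and also inside the Fc receptor gene FCGR1A. Near the H2BC18 start the folds were 5.94 and 7.44, and inside H3C13 they were 5.33 and 5.94. H2AC25, which with H2BC26 forms a separate small cluster (228457364 to 228458558), was the member closest to the 5 kb limit on the inner side, with a summit 4744 bp away (10.3 and 6.04). Its neighbour H2BC26 was the closest on the outer side, 5483 bp from the same summit.

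Outside both chromosomes, H4C16 on chromosome 12 was the only member with a matched summit, 430 bp from the gene and inside LOC105369669, with folds of 5.02 and 5.41 (mean 5.22 ± 0.276, SD, n = 2). None of the lists had a summit within 5 kb of H1-7 (chromosome 12), H1-8 and H1-10 (chromosome 3) or H2BC12L (chromosome 21). In all, 32 members had no summit in any list, 27 of them on chromosome 6 and 1 on chromosome 1. A missing summit means that no peak was listed at this depth, not that ERRα was shown to be absent.

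**Figure D3:**
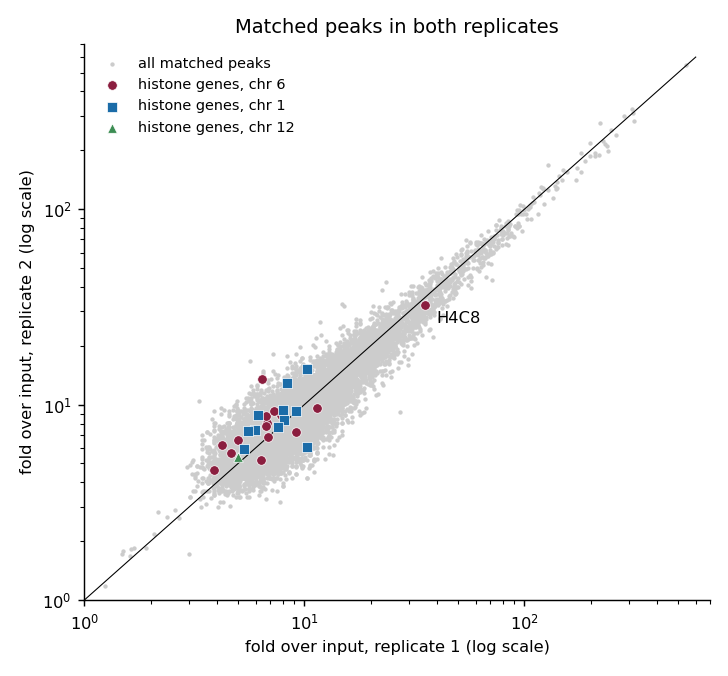
Fold over input in replicate 1 and replicate 2 for all 10059 matched peaks (grey) and for the 27 summits at histone genes on chromosome 6 (circles), chromosome 1 (squares) and chromosome 12 (triangle), on log axes with the line of equality. The mean folds of 26 histone summits lie between 4.26 and 12.8, and H4C8 stands above them at 35.5 and 32.2.

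Most histone summits lay in or just past the start of a gene. Of the 27, 17 lay inside a histone gene and 25 inside or within 1 kb of one. The 17 include a summit inside the long H2BC18 annotation, 16802 bp from its start. They also include the H3C15 summit, which is inside only the long H4C15 annotation and was measured 7845 bp from the H4C15 start. For 24 summits the strand of the nearest histone gene was known from the RefSeq promoter table. Of these, 16 lay from 0 to 1000 bp past the start, and 3, at H4C8, H2BC3 and H2BC21, lay before it. The median position was 246 bp past the start, with medians of 244 bp on chromosome 6 and 207 bp on chromosome 1. The table has no entry for 7 members, among them H4C1, H4C3, H2AC12, H3C11, H3C12 and H2BC12L. In the replicate lists the paired summits were a median of 86 bp apart.

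**Figure D4:**
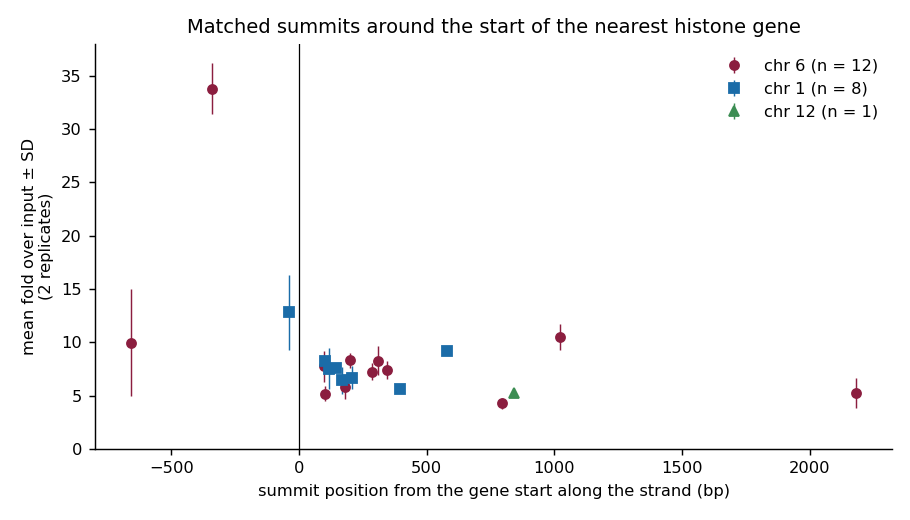
Mean fold over input, with the SD of 2 replicates, against the position of the matched summit from the start of its nearest histone gene along the strand in bp, on chromosome 6 (circles), chromosome 1 (squares) and chromosome 12 (triangle). The 21 summits within 3000 bp are drawn and 3 further away are not, among them the H3C15 summit, measured from the H4C15 start. Most of those drawn lie within 1000 bp past the start, and H4C8 lies 342 bp before it.

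Short words were counted in the 250 bases before the start of each gene with a RefSeq window. CCAAT, bound by the factor NF-Y, was found on either strand in 56 of 67 histone promoters (83.6%), against 34.5% of 15843 protein-coding promoters. TATAAA, the TATA box, was found in 43 (64.2%), against 9.23%. TCAAGGTCA was found in none of the 67, against 0.215% of all, and AAGGTCA, which TCAAGGTCA contains, in 1 (1.49%), against 2.79%. Genes with and without a matched summit held CCAAT in 25 of 30 (83.3%) and 31 of 37 (83.8%) windows, and TATAAA was in 22 of 30 (73.3%) and 21 of 37 (56.8%). These windows hold 1 of the 27 matched summits, that at H2AC20 and H2BC21, so the DNA under most peaks was not searched.

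Genes that act on histone supply were listed separately. The 25 genes were listed for transcription of the replication-dependent histone genes or processing of their mRNA. Some, such as DBF4 and SNRPB, are not particular to histone genes. Of the 25, 10 (40%) had a matched summit, against 27% of all protein-coding genes. At an IDR of 0.05, 8 (32%) did, against 15.8%. CCNE1, the cyclin whose kinase activates the histone coactivator NPAT, had the highest, with folds of 61.6 and 58.4 at 612 bp from the gene. NFYC, a subunit of the CCAAT-binding factor, had 4 summits, of which the highest reached 16 and 16.5. The S-phase transcription factor gene E2F3 had 15.6 and 12.6. ZNF473, a protein of histone pre-mRNA processing, had 11.1 and 12.1, and CPSF3, the endonuclease of 3′ end cleavage, had 10 and 12.8. ERI1, an exonuclease that acts on histone mRNA ends, had 12.6 and 8.06. The other matched genes were HINFP (11.2 and 9.23), CPSF2 (8.48 and 10.8), SNRPB (9.13 and 5.64) and E2F1 (4.67 and 4.22). The HINFP, E2F1 and CPSF3 summits lay 4127, 3199 and 1991 bp from these genes, and that of E2F1 had the lowest IDR score, 154. The other supply gene summits given here lay inside the gene or at most 612 bp away. No summit was listed near NPAT, its partner CASP8AP2 or SLBP, which binds the histone mRNA stem-loop, in any list. Lengths of these genes were not matched to those of histone genes.

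Histone chaperones, which carry histones and load them on DNA, had no matched summit in 22 genes, against 27% of all protein-coding genes. If the 22 genes were independent draws, a count of 0 would allow a share of up to 13.6% (3 over 22). The list was chosen with earlier results of these data known, so this bound is a description and no test. The replicate lists had 3 in replicate 1 (CHAF1A, NAP1L4 and HJURP), or 13.6% against 34.3% of all protein-coding genes, and 2 in replicate 2 (HIRA and NAP1L1), or 9.09% against 31.6%. Their folds were 4.28 to 7.69. Of 15 replacement histone genes outside the family, 4 (26.7%) had a matched summit, near the 27% of all protein-coding genes, and none did at an IDR of 0.05, against 15.8%. The 4 were MACROH2A2 (9.3 and 7.35), H3-3B (8.09 and 6.64), MACROH2A1 (5.33 and 5.24) and H2AJ, which shared the H4C16 summit. Within the chromosome 6 span from H2AC1 to H2BC17, 3 of 20 other protein-coding genes (15%) had a matched summit, against 25.8% of all protein-coding genes of chromosome 6, namely TRIM38 (13.3 and 13.7), SLC17A1 (13.7 and 9.09) and SLC17A2 (9.03 and 10.9). All of these 3 summits lay at lower coordinates than H1-1, the gene at which the run of histone summits begins. The SLC17A1 summit is the one nearest to H2AC1 and H2BC1. In the chromosome 1 span both other genes, FCGR1A and LOC124904411, were counted through the summit they share with H2BC18.

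**Figure D5:**
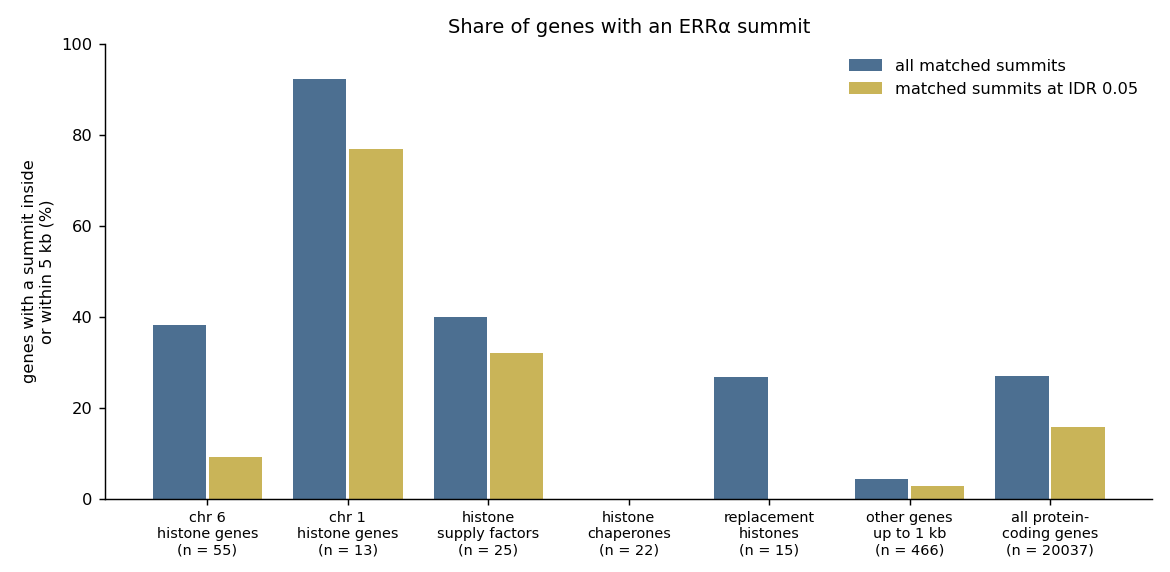
Share of genes with an ERRα summit inside or within 5 kb, for all matched summits and for those at an IDR of 0.05, in the histone genes of chromosome 6 and chromosome 1, 3 lists of related genes, other protein-coding genes of at most 1 kb and all protein-coding genes. Chromosome 6 histone genes stand at 38.2% and 9.09%, chromosome 1 histone genes at 92.3% and 76.9%, and all protein-coding genes at 27% and 15.8%.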

How the data were processed

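ERRα ChIP-seq peaks of MDA-MB-231 cells were taken from the deposited lists. Per the submitters' processing notes, the build was hg38 and the tools included MACS2 2.2.6 (peaks), Bowtie2 2.3.5, Trim Galore 0.6.5, SAMtools, deepTools and Picard. No source at hand gives their settings. Each replicate's peaks were called against both inputs together, per the deposited file names. A peak's fold is a ratio over input computed by the authors, and the deposited lists also give −log10 p and q values and a peak score. Matched peaks carry a deposited IDR score, and their fold is the mean of both replicates here. Read counts per peak were not used, so no interval covers depth.

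Summits were placed at the peak start plus the offset and compared with RefSeq genes of GRCh38.p14, the same build, in Python 3.11.15. Peaks on other contigs (371 in replicate 1, 358 in replicate 2 and 272 matched) were left out. The nearest member was the closest by distance, the shorter gene where several were equal. Window functions were tested on simulated data. Members and lists were chosen with earlier results of these data known. Genes named are all members with a matched summit, the strongest found in one replicate alone and those nearest the 5 kb limit. Up to 6 matched members of each other list were named too. NPAT, CASP8AP2 and SLBP, and the chaperone genes with a summit in one replicate list, were named after their values were seen. So were the matched supply genes beyond the first 6, HINFP, CPSF2, SNRPB and E2F1. Of 18 replacement histone symbols listed, 3 (H2AW, H2BU1 and H4-16) are other names of members in the table and were left out. One member counted in the totals is not reported here by itself. Motifs were counted in the first listed window of each gene. Alternatives were windows of 1 and 10 kb, IDR scores of at least 540 and 830, each replicate's own list, and a −log10 q of at least 5.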

Additional observations from a re-analysis of the deposited data

How the results depend on the processing

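No paired analysis was possible because no result comes from a fit of ChIP against input libraries. The number of histone genes with a matched summit (34 of 74) fell to 15 at an IDR score of at least 540 and to 9 at 830, and on chromosome 6 (21 of 55) to 5 and 3. On chromosome 1 (12 of 13) it was 6 at a score of 830 and stayed within 1.5 times otherwise. These settings keep fewer peaks by construction. The share of all protein-coding genes with a summit also fell, from 27% to 15.8% at a score of 540 and 12.8% at 830. Why the fall differed between the chromosomes was not tested. Leaving out one replicate gave 36 to 40 genes in all, 23 to 26 on chromosome 6 and 12 on chromosome 1. The other alternatives, including counting each summit for its nearest gene, which was chosen after seeing the data, kept the counts within 1.5 times. The median fold of chromosome 6 summits (7.4) was 10.5 and 22.2 at scores of 540 and 830, from 3 and 2 summits, and 6.55 to 7.03 with one replicate left out. That of chromosome 1 (8.16) was 8.96 and 11 at these scores, from 6 and 2 summits, and 7.99 to 8.02 with one replicate left out. The lowest IDR score was held by 8 of the 27 summits (29.6%), against 26.3% of all matched peaks, and the part of depth in this was not tested.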

Other observations

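Summits listed in one replicate alone were few near histone genes. Of the 33 replicate 1 summits, 28 (84.8%) were in the matched list, against 71.9% of all replicate 1 peaks, and of the 31 replicate 2 summits 29 (93.5%) were, against 79.8%. The strongest unmatched summit of replicate 1 lay between H4C2 and H3C2 with a fold of 6.81. In replicate 1 alone, a summit at the start of H3C10 (fold 3.63) was the one within 5 kb of H2BC13, H2AC13, H2AC14 and H2BC14. In replicate 2 alone, a summit between H2BC11 and H2AC11, an H2B and H2A gene read in opposite directions, had a fold of 4.89.

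Histone summits leaned towards replicate 2. The matched fold was higher in replicate 2 at 21 of 27 histone summits (77.8%), against 45.7% of all matched peaks, with a median log2 ratio of replicate 2 over replicate 1 of 0.24 against -0.03. It was higher in 10 of 15 summits on chromosome 6 and in 10 of 11 on chromosome 1. The chromosome 1 count includes the paired genes, whose reads cannot be told apart. At H2BC21 the replicate 2 fold sums 2 peaks, of which the higher was 10.1, against 10.3 in replicate 1. At H1-4 the sum was in replicate 1, where the higher peak alone was 7.91, against 9.64 in replicate 2. At the strongest, H4C8, replicate 1 was higher. Whether a difference in background or depth moves with this was not tested.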
